A study of Mus musculus with 24 samples.

Results

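The secreted ligands and antagonists of the TGF-beta and bone morphogenetic protein (BMP) family were followed through 24 RNA sequencing libraries of mouse embryonic fibroblasts (MEFs). The ligand genes were Tgfb1, Tgfb2 and Tgfb3 for TGF-beta and Inhba for an activin subunit. They also included the BMP and growth and differentiation factor (GDF) genes Bmp2, Bmp4, Gdf6 and Gdf10. The antagonists were Grem1 and Fst. These 10 genes were chosen by symbol with earlier results of these data known. Their counts beside all-gene shares are therefore descriptive and do not test the list. All 10 were found among the 41710 genes of each table of primary and immortalized cells. Of these, 9 in primary and 10 in immortalized MEFs reached at least 1 CPM (counts scaled to the size of the library) in at least 3 of the 12 libraries of a table and were tested, and Bmp2 in primary MEFs did not. Differences were tested with limma on log2(CPM + 1), with p-values adjusted over all genes tested in a table, and every log2 fold change here is on that scale.

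The series compared MEFs that retained Myc and Mlx (WT) with MEFs from which Myc (MycKO), Mlx (MlxKO) or both (DKO) had been excised, with 3 libraries in each of the 8 groups. Myc and Mlx are transcription factors that pair with Max and with the Mondo-type factors, respectively, and both kinds of pair bind the E-box sequence CACGTG. All MEFs came from pooled mid-gestation embryos of mice with floxed Myc and/or Mlx alleles and 2 copies of a ROSA26-CreER transgene, which a ubiquitous promoter drives. Excision was induced with 500 nM 4-hydroxytamoxifen (the vehicle was ethanol), and WT denotes intact loci. By the study's account, immortalized WT cells were kept without 4-hydroxytamoxifen. In comparisons with WT, exposure to the drug and active CreER cannot be told apart from the loss of Myc or Mlx. The same holds for the interaction of both losses below, which includes WT. Immortalized MEFs had been transduced with a lentivirus for SV40 T-antigen and blasticidin resistance, and by the study's account primary MycKO and DKO MEFs had stopped growing. The study also reported that most immortalized MycKO cells had become tetraploid or pseudo-tetraploid, and its part in the changes cannot be told apart from Myc loss. There were 3 floxed lines, each from a pool of embryos, and cells of 1 of them without excision mostly served as WT. The line that gave WT is not named in the sources used here, and a knockout made from another line cannot be told apart from its line. DKO and each single knockout came from different lines, so comparisons between them and the interaction also hold differences between lines. The study called the 3 primary RNA samples of a group biological replicates. Still, the 3 RNAs of a group are not stated to come from separate pools or cultures. The p-values therefore measure the spread between these samples, which may be technical.

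TGF-beta ligands are secreted in latent complexes that are held in the matrix and released by integrins and proteases, and they signal through the receptors Tgfbr1 and Tgfbr2 to Smad2 and Smad3. Activins, which are dimers of Inhba or Inhbb products, use other receptors to reach the same Smads, whereas most BMP and GDF ligands signal through Smad1, Smad5 and Smad9. Fibroblasts both make and respond to these ligands, whose known responses include matrix and Id genes, and gremlin and follistatin bind BMPs and activins, respectively, outside the cell.

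Depth was between 15986856 and 20966163 reads on genes in primary and between 17541112 and 19851300 in immortalized libraries, so that 3 reads corresponded to between 0.145 and 0.196 CPM. Immortalized WT library 4 stood apart. Correlations were taken over the 12880 genes tested in immortalized cells, which are not independent replicates. Library 4 had r between 0.943 and 0.950 with the other WT libraries, against 0.983 to 0.996 for other pairs within immortalized groups. Immortalized comparisons of the members with WT are given with and without it. Because the groups of a table share 1 estimate of the spread, it also enters the intervals of the immortalized comparisons that do not involve WT. Myc in primary MEFs measured 93.9 ± 5.46 CPM (SD, n = 3, as for every group mean here) in WT and 26.5 ± 0.563 in MycKO, and 12.7 ± 3.90 in immortalized MycKO, where WT libraries 2, 3 and 4 read 48.1, 39.9 and 177. Mlx measured 23.7 ± 2.84 CPM in WT and 13.5 ± 0.480 in MlxKO primary MEFs, and 23.0 ± 2.34 and 13.8 ± 2.76 in immortalized MEFs. In DKO MEFs, Myc measured 21.5 ± 1.47 CPM in primary and 6.01 ± 1.89 in immortalized libraries, and Mlx 11.2 ± 1.25 and 16.8 ± 1.96, with every DKO library below every WT library of its table for both genes. Both genes therefore kept reads in the knockout libraries. By the study's account, the excised stretch spanned only some exons of each gene. It also reported nearly complete excision with similar loss of protein. The source of the remaining reads was not tested. The 8 fibroblast markers summed to between 34416 and 46538 CPM in primary and between 13546 and 27008 CPM in immortalized libraries, with none at 0.

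Levels of different genes were compared as CPM per kilobase of annotated exon. In primary WT MEFs, the order ran from Inhba (87.3 ± 1.11 CPM per kilobase), Grem1 (78.8 ± 4.96) and Tgfb3 (67.6 ± 0.239) through Tgfb1 (19.2 ± 1.28) to Fst (10.9 ± 0.399), Bmp4 (10.0 ± 1.02) and Tgfb2 (9.44 ± 0.614), then Gdf10 (4.19 ± 0.331), Gdf6 (2.89 ± 0.119) and Bmp2 (0.0852 ± 0.0423). The libraries of Fst and Bmp4 overlapped, as did those of Bmp4 and Tgfb2, whereas all other neighbours in this order were separated. In immortalized WT libraries 2 and 3, Tgfb3 was the most abundant at a mean of 16.1 CPM per kilobase, followed by Tgfb2 (11.7), Grem1 (11.0), Tgfb1 (10.7), Gdf6 (9.23), Inhba (5.77), Fst (5.63), Bmp4 (5.28), Gdf10 (1.03) and Bmp2 (0.998). The ranges of these libraries overlapped among Tgfb2, Grem1 and Tgfb1, among Inhba, Fst and Bmp4, and between Gdf10 and Bmp2. The order within each of these sets is therefore not resolved. Over all 3 WT libraries, Inhba (17.1 ± 19.6 CPM per kilobase) and Fst (13.4 ± 13.4) had SDs about as large as their means or larger, so their place in that order rests on library 4. The tables of primary and immortalized cells were normalized separately, and levels set across them were not tested.

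**Figure D1:**
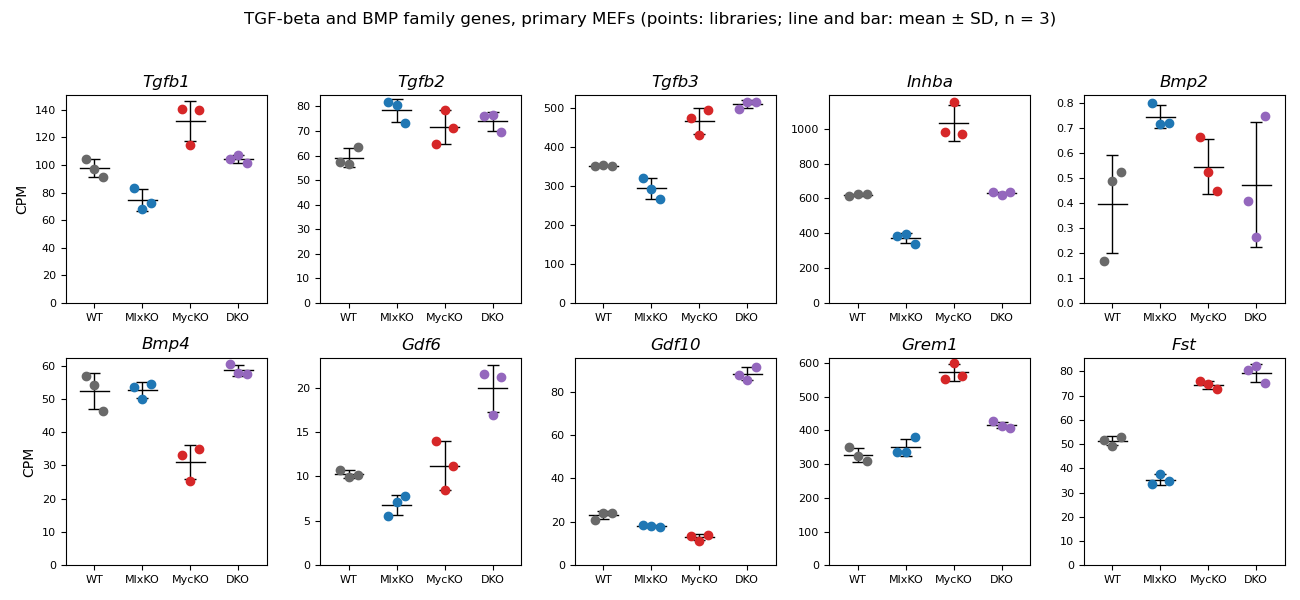
CPM (y axis, linear from 0) of the 10 genes in each primary library, by genotype (x axis); each point is 1 library, and the line and bar are the mean and SD of 3 libraries. Gdf10 stands between 85.6 and 91.6 CPM in the 3 DKO libraries and at or below 24.1 CPM in the others, and Inhba is highest in MycKO and lowest in MlxKO libraries.

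In primary MycKO MEFs, the TGF-beta ligand genes, Inhba and both antagonist genes rose and the ligand genes Bmp4 and Gdf10 fell. In MycKO against WT, 6 of 9 tested members rose and 2 fell at an adjusted p below 0.05, beside 20.4% of all tested genes higher and 21.9% lower. In MlxKO against WT, only Tgfb2 rose and 6 members fell, beside 3.75% and 5.14% of all genes. In DKO against WT, 6 members rose and the estimates of all 9 were positive, with 24.0% of all genes higher and 25.5% lower; the 3 others lay at adjusted p between 0.206 and 0.808. The members' median log2 fold changes were 0.40, -0.32 and 0.34, with medians over all genes of 0.000214, 0.00153 and -0.00233. These 3 comparisons share the WT libraries. The count for MlxKO was the least stable: it fell from 7 to 3 without MlxKO library 6 and to 4 without WT library 1 or 2. With each library scaled by its own total, the share of higher genes among all calls went from 48.3% to 31.4% in MycKO, from 42.2% to 53.8% in MlxKO and from 48.5% to 37.2% in DKO, while the members split 5 higher and 2 lower, 1 and 5, and 6 and 0.

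In immortalized MEFs, Tgfb1, Tgfb3, Inhba, Gdf10 and Grem1 rose and Tgfb2 and Gdf6 fell with Myc loss. Thus 5 of 10 members rose and 2 fell in MycKO against WT, beside 24.4% of all tested genes higher and 23.5% lower. Without WT library 4, 6 rose and 4 fell, beside 27.3% and 26.7%. In MlxKO, 4 rose and Tgfb2 fell (all genes: 19.1% and 19.9%), and without that library 7 rose and Tgfb2 fell (all genes: 23.1% and 23.8%). The MlxKO count of 5 also dropped to 3 without MlxKO library 5 or 6 and to 2 without library 7. In DKO, 3 rose and Grem1 fell, beside 10.4% and 8.51% of all genes, and 5 rose and Grem1 fell without WT library 4, beside 12.0% and 10.1%. The members' medians of 0.77, 0.49 and -0.055 on the log2 scale stood beside all-gene medians of -0.00103, 0.00735 and -0.00543. Without WT library 4 the members' medians were 0.88, 0.66 and 0.28, so that the sign in DKO turned on that library. Scaling by library totals moved the share of higher genes among all calls in MlxKO from 49.0% to 69.9% and the all-gene median to 0.16, and 6 members rose and 1 fell.

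**Figure D2:**
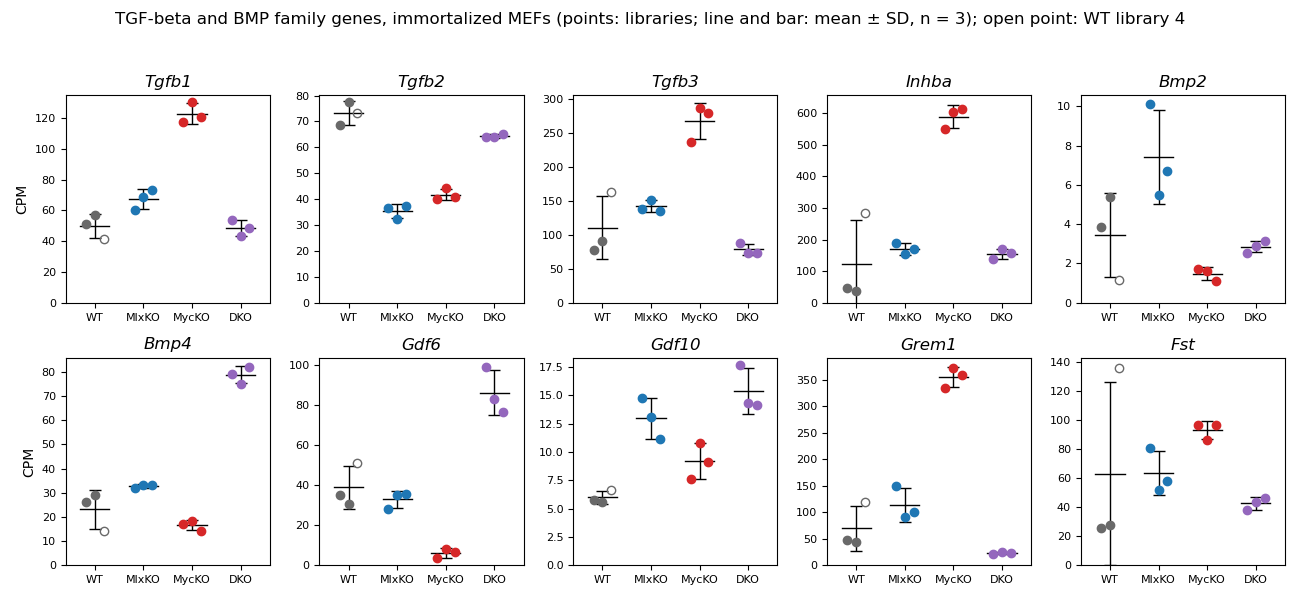
CPM (y axis, linear from 0) of the 10 genes in each immortalized library, by genotype (x axis); each point is 1 library, the open point is WT library 4, and the line and bar are the mean and SD of 3 libraries, with bars cut off at 0. WT library 4 lies far above the other WT libraries for Inhba, Fst, Grem1 and Tgfb3, and the MycKO libraries are highest for Tgfb1, Tgfb3, Inhba and Grem1.

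Tgfb1 (chr7:25386390-25404506, plus strand, GRCm39, as are all gene positions here) encodes the TGF-beta isoform best known in fibrosis and immune control. In primary MEFs, its libraries read 105, 97.0 and 91.6 CPM in WT, 83.1, 68.0 and 72.6 in MlxKO, 140.4, 115 and 140.2 in MycKO and 104, 107 and 101 in DKO. MycKO libraries were all above WT and MlxKO libraries all below, whereas DKO libraries overlapped with WT. The log2 fold change against WT was 0.42 (95% interval 0.24 to 0.61, adjusted p = 0.000883) in MycKO, -0.39 (95% interval -0.57 to -0.20, adjusted p = 0.00961) in MlxKO and 0.093 (95% interval -0.091 to 0.28, adjusted p = 0.396) in DKO. The fall in MlxKO was lost without WT library 1 (adjusted p = 0.0594) or MlxKO library 6 (adjusted p = 0.0578). Macrophages also express Tgfb1, and in primary MEFs the 15 macrophage markers summed to 220.1 to 432 CPM in WT, 230.0 to 278 in MlxKO, 35.0 to 49.8 in MycKO and 75.1 to 156 in DKO, with none of the 15 at 0 in every library of a group. The markers were thus lowest in the group in which Tgfb1 was highest, and their part in the level of Tgfb1 was not tested. In bulk RNA, fewer cells of a type and less RNA per cell cannot be told apart.

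In immortalized MEFs, Tgfb1 read 51.0, 57.4 and 41.7 CPM in WT, 60.2, 68.5 and 73.6 in MlxKO, 117, 130.4 and 121 in MycKO and 53.6, 43.6 and 48.5 in DKO. It rose in MycKO by a log2 fold change of 1.29 (95% interval 1.01 to 1.58, adjusted p = 1.25e-05), and by 1.17 (adjusted p = 2.45e-06) without WT library 4. In MlxKO the change was 0.43 (95% interval 0.15 to 0.72, adjusted p = 0.0219) and 0.31 (adjusted p = 0.0491) without that library, with all MlxKO libraries above WT, the opposite side from primary cells. This call was lost without MlxKO library 6 (adjusted p = 0.0736) or 7 (adjusted p = 0.0936), and with only the groups compared in the fit (adjusted p = 0.0679). DKO overlapped with WT, at -0.036 (95% interval -0.32 to 0.25, adjusted p = 0.871) with and -0.16 (adjusted p = 0.375) without WT library 4, and was lower than MycKO, at a log2 fold change of -1.33 (95% interval -1.61 to -1.04, adjusted p = 1.22e-05). Macrophage markers were near 0 in these cells, where 12 or 13 of the 15 stayed below 1 CPM and Adgre1, Tyrobp, C1qa, C1qb and C1qc were at 0 in every library.

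Promoter windows of 250 bases before to 50 after the annotated start were found for 6 of the 10 members in RefSeq (GRCm38.p6), and were searched on both strands for CACGTG, which reads the same on both. Of all 32851 windows, 7.15% held these letters, as did the windows of Tgfb2, beginning 51 bases before the start, and Bmp4, beginning 188 bases before it. Those of Tgfb1, Inhba, Gdf10 and Grem1 did not. The 250 bases before the start are shown for Tgfb2 (chr1:186705990-186706239, minus strand) and Bmp4 (chr14:46390670-46390919, minus strand), as the members with the letters that both Myc and Mlx pairs can bind, with CACGTG in capitals. A match is a description of the letters and not evidence of binding.
Tgfb2: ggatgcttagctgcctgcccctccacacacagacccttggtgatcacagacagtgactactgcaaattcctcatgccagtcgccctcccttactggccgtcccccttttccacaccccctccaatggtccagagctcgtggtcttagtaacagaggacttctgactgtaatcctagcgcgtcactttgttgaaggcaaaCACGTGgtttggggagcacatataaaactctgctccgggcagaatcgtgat
Bmp4: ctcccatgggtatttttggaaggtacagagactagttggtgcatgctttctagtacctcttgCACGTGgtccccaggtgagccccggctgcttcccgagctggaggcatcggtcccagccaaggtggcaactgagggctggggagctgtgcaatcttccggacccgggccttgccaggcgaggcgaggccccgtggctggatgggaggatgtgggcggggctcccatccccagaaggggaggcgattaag

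Tgfb2 (chr1:186354985-186438294, minus strand), the isoform known from heart and skeletal development, was the only TGF-beta ligand gene to fall against WT in immortalized cells. Its primary libraries read 57.3, 56.4 and 63.5 CPM in WT, 81.7, 80.6 and 73.1 in MlxKO, 64.8, 78.6 and 71.2 in MycKO and 76.1, 76.4 and 69.5 in DKO, and every knockout library was above every WT library. The log2 fold changes were 0.40 (95% interval 0.24 to 0.57, adjusted p = 0.00440) in MlxKO, 0.27 (95% interval 0.10 to 0.44, adjusted p = 0.0118) in MycKO and 0.32 (95% interval 0.15 to 0.49, adjusted p = 0.00306) in DKO. The MycKO call was lost when libraries were scaled by their totals (adjusted p = 0.0866) and without WT library 2 (adjusted p = 0.0525). In immortalized MEFs the libraries read 68.5, 77.7 and 73.5 CPM in WT, 36.7, 32.3 and 37.3 in MlxKO, 40.1, 44.3 and 41.0 in MycKO and 63.9, 63.9 and 65.2 in DKO. Here both single knockouts stood well below WT and DKO lay between. Tgfb2 fell in MlxKO by a log2 fold change of -1.03 (95% interval -1.24 to -0.81, adjusted p = 4.39e-05) and in MycKO of -0.79 (95% interval -1.01 to -0.58, adjusted p = 5.52e-05), and DKO differed from WT by -0.18 (95% interval -0.39 to 0.031, adjusted p = 0.207). WT library 4 read like the other WT libraries for this gene, and without it the values were -1.02 (adjusted p = 7.55e-06), -0.79 (adjusted p = 3.51e-05) and -0.18 (adjusted p = 0.257). DKO was higher than MycKO by 0.61 (adjusted p = 0.000535) and than MlxKO by 0.85 (adjusted p = 9.24e-05) on the log2 scale.

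Tgfb3 (chr12:86102756-86126301, minus strand), an isoform known for its role in palate closure, was the most abundant TGF-beta ligand gene per kilobase in WT cells of both tables. In primary MEFs it read 353, 353 and 351 CPM in WT, 322, 294 and 268 in MlxKO, 476, 432 and 496 in MycKO and 499, 517 and 516 in DKO. MlxKO libraries were all below WT, and MycKO and DKO libraries all above. It rose in MycKO by 0.40 (95% interval 0.26 to 0.55, adjusted p = 0.000163) and in DKO by 0.53 (95% interval 0.39 to 0.68, adjusted p = 8.16e-06), and fell in MlxKO by a log2 fold change of -0.26 (95% interval -0.41 to -0.12, adjusted p = 0.0228). The MlxKO call was lost without WT library 1 or 2 or MlxKO library 6 or 7 (adjusted p between 0.0694 and 0.10) and with no filter on low values (adjusted p = 0.0537). In immortalized MEFs the values were 77.0, 91.3 and 163 CPM in WT, 138, 152 and 135 in MlxKO, 236, 286 and 279 in MycKO and 88.0, 73.6 and 73.7 in DKO. MycKO was far above all other groups, with a log2 fold change of 1.34 (95% interval 0.87 to 1.80, adjusted p = 0.000363) against WT and 1.65 (adjusted p = 9.60e-08) without WT library 4. MlxKO differed from WT by 0.43 (95% interval -0.031 to 0.90, adjusted p = 0.124), and by 0.75 (adjusted p = 0.000327) without that library, which read above all MlxKO libraries. DKO was at -0.42 (adjusted p = 0.185) against WT and at -0.10 (adjusted p = 0.607) without library 4.

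Inhba (chr13:16186373-16206206, plus strand), whose product dimerizes to activin A, moved in opposite directions with the loss of Myc and of Mlx in primary cells. Its libraries read 612, 626 and 624 CPM in WT, 382, 397 and 338 in MlxKO, 981, 1153 and 972 in MycKO and 635, 623 and 636 in DKO. Neither single knockout overlapped with WT, and DKO did. Inhba rose in MycKO by a log2 fold change of 0.73 (95% interval 0.58 to 0.88, adjusted p = 6.69e-07), fell in MlxKO at -0.74 (95% interval -0.89 to -0.59, adjusted p = 7.92e-06) and differed in DKO by 0.024 (95% interval -0.13 to 0.18, adjusted p = 0.808). The interaction of both losses, which is the change with Myc loss in Mlx-deleted cells minus that in Mlx-intact cells, was 0.030 (95% interval -0.19 to 0.25, adjusted p = 0.900) on the log2 scale.

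In immortalized MEFs, Inhba read 45.6, 36.5 and 283 CPM in WT libraries 2, 3 and 4, 190.2, 153 and 169.9 in MlxKO, 548, 605 and 613 in MycKO and 138, 169 and 157 in DKO. All MycKO libraries exceeded all others, and the comparison of MlxKO and DKO with WT turned on library 4. MycKO rose by a log2 fold change of 2.89 (95% interval 1.72 to 4.07, adjusted p = 0.00103) with library 4 and by 3.82 (95% interval 3.54 to 4.09, adjusted p = 5.26e-11) without it. MlxKO was at 1.11 (95% interval -0.056 to 2.28, adjusted p = 0.117) with and 2.04 (95% interval 1.76 to 2.31, adjusted p = 5.87e-08) without it, and DKO at 0.97 (95% interval -0.20 to 2.14, adjusted p = 0.220) with and 1.89 (95% interval 1.61 to 2.17, adjusted p = 3.67e-07) without it. DKO was lower than MycKO, at a log2 fold change of -1.93 (95% interval -3.10 to -0.75, adjusted p = 0.0176), a call that was lost without MycKO library 11 (adjusted p = 0.0511) or DKO library 13 (adjusted p = 0.0530), and had an adjusted p of 1.14e-08 without WT library 4. DKO and MlxKO overlapped.

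Bmp4 (chr14:46620250-46636745, minus strand), a BMP that patterns mesoderm, had its lowest group mean in MycKO and its highest in DKO in both tables. Primary libraries read 56.8, 54.0 and 46.5 CPM in WT, 53.4, 49.9 and 54.5 in MlxKO, 33.3, 25.3 and 34.8 in MycKO and 60.6, 57.7 and 57.5 in DKO. MycKO libraries were below all others, and DKO libraries were above all others. Bmp4 fell in MycKO by a log2 fold change of -0.74 (95% interval -0.96 to -0.52, adjusted p = 2.28e-05), while MlxKO was at 0.00954 (95% interval -0.21 to 0.23, adjusted p = 0.970) and DKO at 0.16 (95% interval -0.056 to 0.38, adjusted p = 0.206), both short of the threshold. DKO exceeded MycKO by 0.90 (95% interval 0.69 to 1.12, adjusted p = 6.65e-06). Immortalized libraries read 26.1, 29.3 and 14.0 CPM in WT, 31.8, 33.3 and 33.2 in MlxKO, 17.2, 18.2 and 14.2 in MycKO and 79.3, 75.2 and 82.2 in DKO. Again all DKO libraries were above every other library, and WT library 4 lay below the MycKO libraries. Bmp4 rose in DKO by 1.79 (95% interval 1.33 to 2.25, adjusted p = 0.000217), and by 1.48 (adjusted p = 1.66e-06) without library 4. In MycKO it was at -0.40 (95% interval -0.86 to 0.054, adjusted p = 0.132) with and -0.71 (95% interval -0.98 to -0.45, adjusted p = 0.000252) without that library, so the fall is called only without it. In MlxKO it was at 0.55 (adjusted p = 0.0556) with and 0.24 (adjusted p = 0.123) without it, and without WT library 3 at 0.75 (adjusted p = 0.0144). The exons of Bmp4 overlap those of 2 long non-coding RNAs on the other strand, Gm15217 and Gm15222, over 452 and 1178 bases, and the sources used here do not give the strand setting of the counting, so that their reads cannot be told apart. The library kit was directional by the study's account. Shorter overlaps with long non-coding RNAs on the other strand hold for Tgfb2, Tgfb3, Inhba, Gdf10 and Fst. Tgfb3 also overlaps the protein-coding gene Ttll5 over 179 bases and Gm37804 over 163 bases, both on the other strand.

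Bmp2 (chr2:133394079-133404816, plus strand), a ligand known for bone formation, was barely detected in primary MEFs, with 0.169, 0.489 and 0.526 CPM in WT, 0.800, 0.718 and 0.719 in MlxKO, 0.665, 0.523 and 0.448 in MycKO and 0.409, 0.264 and 0.749 in DKO, and was not tested there. In immortalized MEFs it read 3.86, 5.38 and 1.16 CPM in WT, 10.1, 5.51 and 6.68 in MlxKO, 1.74, 1.59 and 1.13 in MycKO and 2.56, 2.88 and 3.15 in DKO. MlxKO libraries were above all others and MycKO libraries were low, as was WT library 4. The log2 fold change was 1.02 (95% interval 0.30 to 1.74, adjusted p = 0.0292) in MlxKO and -0.72 (95% interval -1.44 to 0.00270, adjusted p = 0.0921) in MycKO, and 0.56 (adjusted p = 0.04999) and -1.17 (adjusted p = 0.000530) without library 4. The rise in MlxKO was lost without MlxKO library 5 (adjusted p = 0.103) or 7 (adjusted p = 0.0646), with no filter on low values (adjusted p = 0.0591), with only the groups compared in the fit (adjusted p = 0.106) and by edgeR on the whole reads recovered from the CPM values (adjusted p = 0.0534). The MycKO fall passed by edgeR (adjusted p = 0.0429) and DESeq2 (adjusted p = 0.0198). DKO was at -0.074 (95% interval -0.79 to 0.64, adjusted p = 0.893) against WT with library 4 and at -0.53 (95% interval -1.0 to -0.058, adjusted p = 0.1004) without it, and lower than MlxKO at -1.09 (adjusted p = 0.0260), a call that was lost without MlxKO library 5 or 7 or any DKO library (adjusted p between 0.0593 and 0.0948) and with no filter (adjusted p = 0.0533).

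Gdf6 (chr4:9844350-9862354, plus strand), a ligand of joint and skull formation, separated MycKO from DKO most widely among the BMP and GDF members of immortalized cells. In primary MEFs, it read 10.8, 9.99 and 10.1 CPM in WT, 5.60, 7.12 and 7.75 in MlxKO, 14.0, 8.44 and 11.2 in MycKO and 21.6, 16.9 and 21.3 in DKO. DKO libraries were above all others, MlxKO libraries were below WT, and MycKO overlapped with WT. Gdf6 rose in DKO by a log2 fold change of 0.88 (95% interval 0.56 to 1.21, adjusted p = 0.000168), fell in MlxKO at -0.54 (95% interval -0.86 to -0.21, adjusted p = 0.0373) and was at 0.087 (95% interval -0.24 to 0.41, adjusted p = 0.685) in MycKO. The MlxKO call was lost in 6 of the 12 fits that left out 1 library, those without WT library 1, 2 or 3, MlxKO library 5 or 6, or DKO library 13 (adjusted p between 0.0511 and 0.144) and with no filter on low values (adjusted p = 0.101). In immortalized MEFs, it read 35.1, 30.7 and 50.8 CPM in WT, 28.0, 35.3 and 35.5 in MlxKO, 3.68, 8.18 and 6.47 in MycKO and 98.7, 83.0 and 76.5 in DKO. MycKO fell by a log2 fold change of -2.51 (95% interval -3.03 to -1.99, adjusted p = 7.45e-06) and DKO rose by 1.15 (95% interval 0.63 to 1.67, adjusted p = 0.00696), or -2.30 (adjusted p = 1.37e-06) and 1.36 (adjusted p = 0.000715) without WT library 4. MlxKO overlapped with WT, at -0.21 (adjusted p = 0.507) with and -0.00259 (adjusted p = 0.993) without that library. DKO exceeded MycKO by 3.66 (95% interval 3.14 to 4.18, adjusted p = 4.12e-07).

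Gdf10 (chr14:33645273-33659940, plus strand), also called BMP3b, showed the largest change of any member in primary cells. It read 20.9, 23.9 and 24.1 CPM in WT, 18.6, 18.3 and 17.7 in MlxKO, 13.6, 11.3 and 14.1 in MycKO and 87.8, 85.6 and 91.6 in DKO. Both single knockouts lay below WT, whereas DKO lay far above. Gdf10 fell in MycKO by a log2 fold change of -0.78 (95% interval -0.97 to -0.59, adjusted p = 3.81e-06) and in MlxKO of -0.32 (95% interval -0.51 to -0.13, adjusted p = 0.0372), but rose in DKO by 1.90 (95% interval 1.71 to 2.09, adjusted p = 1.78e-10). DKO exceeded MycKO by 2.68 (95% interval 2.49 to 2.87, adjusted p = 4.55e-12) and MlxKO by 2.22 (95% interval 2.03 to 2.41, adjusted p = 3.10e-11). The MlxKO call was lost in 8 of the 12 fits that left out 1 library, those without WT library 2 or 3, MlxKO library 5, 6 or 7, or DKO library 13, 14 or 15 (adjusted p between 0.0542 and 0.144), with no filter on low values (adjusted p = 0.0592), with scaling by library totals (adjusted p = 0.0574) and with only the groups compared (adjusted p = 0.0531). In immortalized MEFs Gdf10 was lower throughout, at 5.74, 5.60 and 6.63 CPM in WT, 14.8, 13.1 and 11.1 in MlxKO, 7.62, 10.8 and 9.12 in MycKO and 17.7, 14.3 and 14.1 in DKO. All 3 knockouts were above WT, whose library 4 read like the others. The log2 fold changes were 0.99 (95% interval 0.64 to 1.35, adjusted p = 0.000974) in MlxKO, 0.53 (95% interval 0.18 to 0.89, adjusted p = 0.0172) in MycKO and 1.22 (95% interval 0.87 to 1.58, adjusted p = 0.000471) in DKO, or 1.06 (adjusted p = 0.000255), 0.60 (adjusted p = 0.00855) and 1.29 (adjusted p = 0.000109) without it. The MycKO call was lost without WT library 2 (adjusted p = 0.0510) or MycKO library 10 (adjusted p = 0.0762), and with only the groups compared (adjusted p = 0.0651). DKO and MlxKO overlapped.

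Grem1 (chr2:113576509-113589000, minus strand), which encodes the BMP antagonist gremlin, had the widest range of group means of all members. In primary MEFs, it read 349.9, 324 and 309 CPM in WT, 335, 335 and 379.5 in MlxKO, 554, 600.4 and 562 in MycKO and 427, 414 and 407 in DKO. MycKO libraries were highest, DKO libraries lay between MycKO and WT, and MlxKO overlapped with WT. The log2 fold change was 0.80 (95% interval 0.66 to 0.94, adjusted p = 9.01e-08) in MycKO, 0.34 (95% interval 0.21 to 0.48, adjusted p = 0.000367) in DKO and 0.093 (95% interval -0.046 to 0.23, adjusted p = 0.423) in MlxKO. In immortalized MEFs, it read 47.0, 44.2 and 119 CPM in WT, 150.4, 90.4 and 101 in MlxKO, 335, 372 and 359 in MycKO and 20.8, 24.9 and 22.4 in DKO. MycKO was again highest, but DKO was now below all WT libraries. Grem1 rose in MycKO by 2.48 (95% interval 1.82 to 3.14, adjusted p = 4.97e-05) and fell in DKO by a log2 fold change of -1.43 (95% interval -2.09 to -0.77, adjusted p = 0.00756), or 2.94 (95% interval 2.57 to 3.30, adjusted p = 6.89e-09) and -0.98 (95% interval -1.34 to -0.62, adjusted p = 0.000954) without WT library 4. With only the DKO and WT libraries in the fit, the fall in DKO had an adjusted p of 0.0585. MlxKO was at 0.82 (95% interval 0.16 to 1.47, adjusted p = 0.0486) with that library and at 1.27 (95% interval 0.91 to 1.63, adjusted p = 5.56e-05) without it. With library 4 in the fit, the MlxKO call was lost on leaving out any other library (adjusted p between 0.0585 and 0.174) and under 6 other settings, edgeR and DESeq2 among them (adjusted p between 0.0503 and 0.150). DKO differed from MycKO by -3.91 (95% interval -4.57 to -3.26, adjusted p = 1.55e-06) and from MlxKO by -2.25 (95% interval -2.90 to -1.59, adjusted p = 0.000248).

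Fst (chr13:114588731-114595521, minus strand) encodes the activin-binding protein follistatin, and it was called in all 3 primary knockouts. It read 51.8, 49.3 and 52.9 CPM in WT, 33.4, 37.7 and 34.8 in MlxKO, 76.1, 74.7 and 72.7 in MycKO and 80.6, 82.3 and 75.3 in DKO. No knockout overlapped with WT. Fst rose in MycKO by a log2 fold change of 0.53 (95% interval 0.39 to 0.67, adjusted p = 9.51e-06) and in DKO by 0.62 (95% interval 0.48 to 0.76, adjusted p = 1.35e-06), and fell in MlxKO at -0.53 (95% interval -0.67 to -0.38, adjusted p = 0.000114). Inhba and Fst thus differed in DKO, where the log2 fold change of Inhba was 0.024, and the difference between the 2 genes was not tested. In immortalized MEFs, Fst read 25.6, 27.5 and 136 CPM in WT, 80.6, 51.9 and 57.9 in MlxKO, 96.4, 86.3 and 96.9 in MycKO and 37.9, 43.7 and 46.7 in DKO. WT library 4 was above every other library of this table. With it, no comparison with WT passed the test, at 1.0 (95% interval -0.00825 to 2.01, adjusted p = 0.0933) in MycKO, 0.43 (95% interval -0.58 to 1.44, adjusted p = 0.478) in MlxKO and -0.11 (95% interval -1.12 to 0.90, adjusted p = 0.888) in DKO. Without it, Fst rose in all 3, by 1.77 (95% interval 1.43 to 2.11, adjusted p = 6.40e-07), 1.20 (95% interval 0.86 to 1.54, adjusted p = 5.68e-05) and 0.66 (95% interval 0.32 to 1.0, adjusted p = 0.00877), so that the sign in DKO turned on that library.

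**Figure D3:**
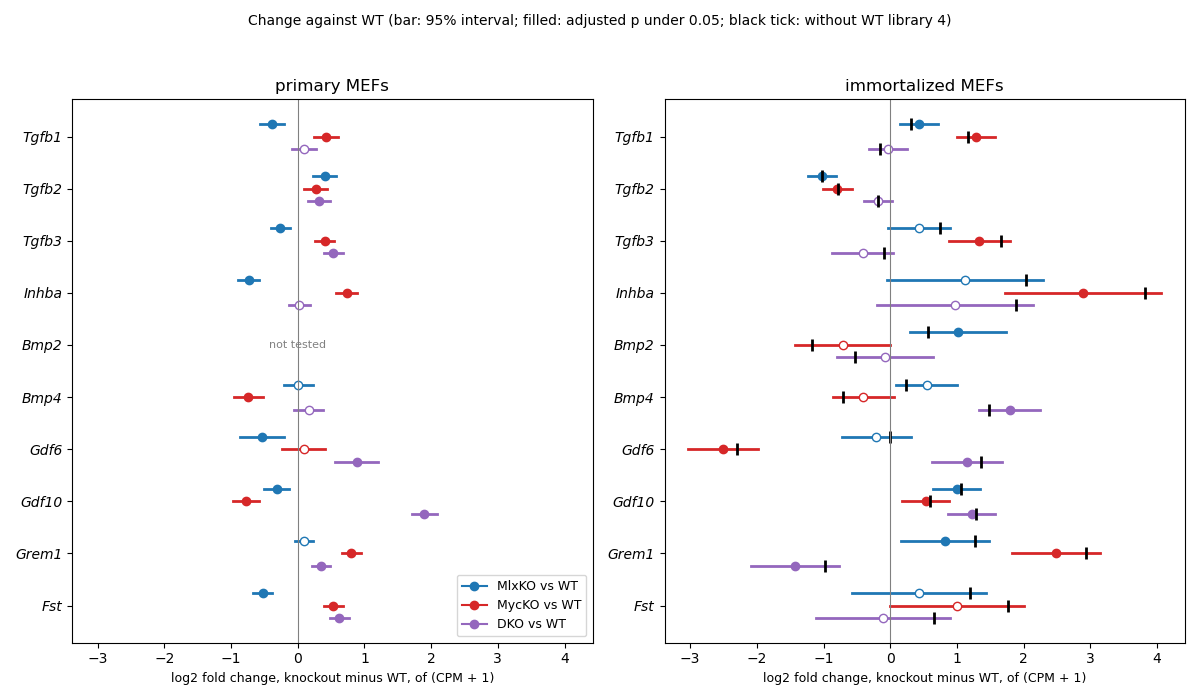
Log2 fold change of CPM + 1 against WT (x axis) for each gene (y axis) in MlxKO, MycKO and DKO cells of each table; bars are 95% intervals, filled points passed an adjusted p below 0.05, and black ticks are the estimates without WT library 4. In primary cells the DKO point of Gdf10 lies farthest from 0, and in immortalized cells the ticks lie far from the points for Inhba and Fst.

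The comparison of DKO with each single knockout asked whether loss of the second factor changed these genes further. A difference between the floxed lines of these knockouts cannot be told apart from that loss. In primary MEFs, DKO against MycKO showed 3 members higher (Bmp4, Gdf6 and Gdf10) and 3 lower (Tgfb1, Inhba and Grem1), beside 10.6% and 11.0% of all genes. The ligands that were higher were BMP and GDF genes, while Tgfb1 was at a log2 fold change of -0.33 (adjusted p = 0.0112), Inhba at -0.71 (adjusted p = 2.07e-06) and Grem1 at -0.46 (adjusted p = 7.51e-05). The Tgfb1 call was lost without MycKO library 9 (adjusted p = 0.0541) or 11 (adjusted p = 0.0534). DKO against MlxKO showed 7 members higher, beside 23.3% of all genes higher and 25.9% lower, and Tgfb2 and Bmp4 were at -0.083 (adjusted p = 0.413) and 0.15 (adjusted p = 0.236). Fst rose there by 1.15 (adjusted p = 1.47e-09), Tgfb3 by 0.80 (adjusted p = 1.10e-07) and Inhba by 0.76 (adjusted p = 3.06e-07). The Grem1 call in DKO against MlxKO, at 0.25 (adjusted p = 0.00448), was lost when libraries were scaled by their totals (adjusted p = 0.0823).

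In immortalized MEFs, DKO against MycKO showed Tgfb2, Bmp4, Gdf6 and Gdf10 higher and Tgfb1, Tgfb3, Inhba and Grem1 lower, beside 14.8% and 14.6% of all genes. Without WT library 4, which enters this comparison only through the shared spread, Bmp2 (log2 fold change 0.64 (adjusted p = 0.0182)) joined the first and Fst (-1.11 (adjusted p = 2.33e-05)) the second, beside 20.5% and 20.5%. The ligand genes Bmp4, Gdf6 and Gdf10 were thus higher and Tgfb1, Inhba and Grem1 lower in DKO than in MycKO in both tables. DKO against MlxKO showed Tgfb2, Bmp4 and Gdf6 higher and Tgfb1, Tgfb3, Bmp2 and Grem1 lower (all genes: 16.3% and 13.9%), to which Fst was added below without WT library 4 (all genes: 22.6% and 20.6%). The Tgfb1 call was lost without MlxKO library 6 or 7 or DKO library 14 or 15 (adjusted p between 0.0549 and 0.0870). Tgfb1 and Tgfb3 thus lay above MlxKO in primary DKO and below it in immortalized DKO cells, a difference between tables that was not tested.

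The interaction asked whether the change with Myc loss depended on Mlx. Differences between floxed lines and drug exposure enter it as well and cannot be told apart from that. In primary MEFs it passed the test for 7 of 9 members, beside 13.5% of all genes. The estimate was positive for Gdf10 (3.0 (95% interval 2.73 to 3.27, adjusted p = 2.00e-10)), Gdf6 (1.33 (95% interval 0.87 to 1.79, adjusted p = 0.000442)), Bmp4 (0.89 (95% interval 0.59 to 1.20, adjusted p = 0.000434)), Fst (0.62 (95% interval 0.42 to 0.82, adjusted p = 0.000264)) and Tgfb3 (0.39 (95% interval 0.19 to 0.60, adjusted p = 0.0111)). It was negative for Grem1 (-0.55 (95% interval -0.75 to -0.36, adjusted p = 0.000566)) and Tgfb2 (-0.35 (95% interval -0.59 to -0.11, adjusted p = 0.0480)). The Tgfb2 call was lost in 9 of the 12 fits that left out 1 library, those without WT library 1 or 2, MlxKO library 5 or 6, MycKO library 10 or 11, or any DKO library (adjusted p between 0.0653 and 0.134), and also with no filter on low values (adjusted p = 0.0781), median-ratio scaling (adjusted p = 0.0581) and edgeR on the recovered reads (adjusted p = 0.0568). Tgfb1 and Inhba were at 0.058 (95% interval -0.20 to 0.32, adjusted p = 0.835) and 0.030 (95% interval -0.19 to 0.25, adjusted p = 0.900), with intervals that span changes in both directions.

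In immortalized MEFs the interaction passed for 7 of 10 members, beside 47.4% of all genes, and for 8 without WT library 4, beside 56.7%, a background against which the members' count says little. The largest were Grem1 at -4.73 (95% interval -5.66 to -3.80, adjusted p = 7.52e-06) and Gdf6 at 3.87 (95% interval 3.13 to 4.60, adjusted p = 6.12e-06). Inhba was at -3.04 (adjusted p = 0.00637), Tgfb3 at -2.19 (adjusted p = 0.000158) and Tgfb1 at -1.76 (adjusted p = 2.44e-05), all negative, and Bmp4 at 1.64 (adjusted p = 0.000936) and Tgfb2 at 1.64 (adjusted p = 4.58e-06), both positive. Without WT library 4 these were -5.18 (adjusted p = 4.39e-10) for Grem1, 3.66 (adjusted p = 2.53e-07) for Gdf6, -3.96 (adjusted p = 4.74e-10) for Inhba, -2.50 (adjusted p = 2.79e-08) for Tgfb3, -1.63 (adjusted p = 1.65e-06) for Tgfb1, 1.96 (adjusted p = 3.06e-07) for Bmp4 and 1.64 (adjusted p = 5.40e-07) for Tgfb2. Fst moved from -1.54 (95% interval -2.96 to -0.11, adjusted p = 0.0705) to -2.31 (95% interval -2.77 to -1.85, adjusted p = 8.34e-07). Gdf10, with the largest primary interaction, was at -0.30 (95% interval -0.80 to 0.19, adjusted p = 0.293), and Bmp2 at -0.38 (adjusted p = 0.531), or -0.37 (adjusted p = 0.178) and 0.081 (adjusted p = 0.832) without WT library 4.

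**Figure D4:**
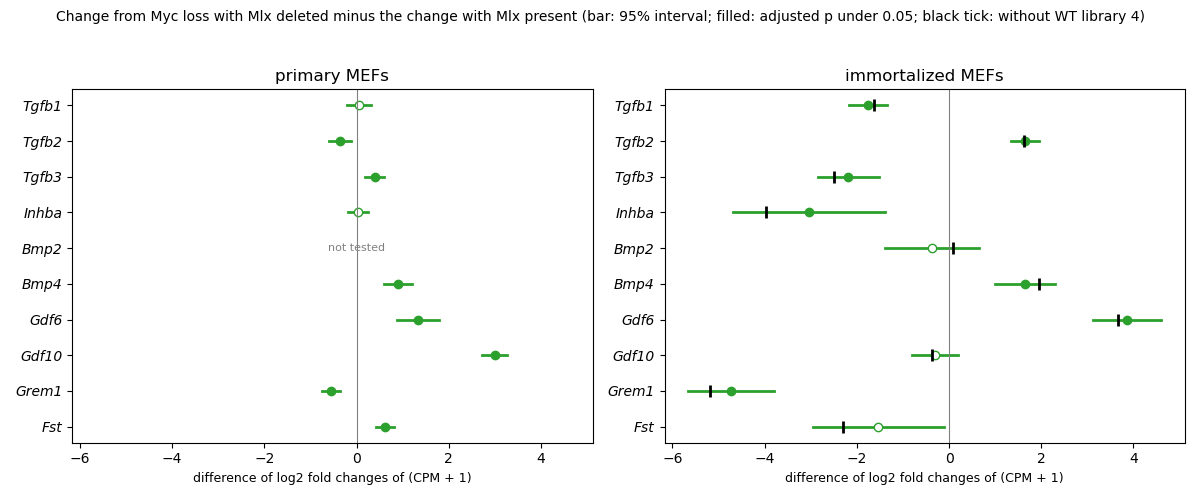
Interaction of Myc and Mlx loss (x axis), the log2 fold change of CPM + 1 with Myc loss in Mlx-deleted cells minus that in Mlx-intact cells, for each gene (y axis) in each table; bars are 95% intervals, filled points passed an adjusted p below 0.05, and black ticks are the estimates without WT library 4. Gdf10 is the largest in primary cells, and Grem1 and Gdf6 lie at opposite ends in immortalized cells.

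The rest of the pathway was followed through 7 lists of receptors, Smads, other ligands, other secreted antagonists, latency and activation genes, and known responses to TGF-beta and to BMP, for which the all-gene shares and medians given above are the background. These lists were also chosen with earlier results of these data known, so their counts are descriptive. In primary MycKO MEFs, receptors had 11 of 14 tested genes higher and 0 lower (median log2 change 0.30), beside 20.4% of all genes higher and 21.9% lower. Eng, which encodes the co-receptor endoglin, rose from 41.0 ± 3.60 CPM to 88.5 ± 4.18 (log2 change 1.09, adjusted p = 1.47e-08), and Acvrl1, a type I receptor gene, from 30.9 ± 1.48 CPM to 58.5 ± 5.78 (log2 change 0.90, adjusted p = 3.16e-07). Both are known from endothelial cells, and the 6 endothelial markers summed to 13.9 to 15.5 CPM in WT and 5.32 to 8.83 in MycKO. In each of these groups 4 of the 6 stayed below 1 CPM, and the part of such cells was not tested. Other secreted antagonists had 8 of 12 tested genes higher and 1 lower (median log2 change 0.47). The BMP antagonist gene Nog rose from 1.70 ± 0.863 CPM to 5.67 ± 0.926 (log2 change 1.35, adjusted p = 0.000108) and Dcn, for the TGF-beta-binding proteoglycan decorin, from 189 ± 12.6 CPM to 399.9 ± 19.6 (log2 change 1.08, adjusted p = 4.34e-09). Chrdl1, of the chordin family, fell from 3.45 ± 0.656 CPM to 1.75 ± 0.127 (log2 change -0.69, adjusted p = 0.00369).

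Latency and activation genes in primary MycKO MEFs had 11 of 17 tested genes higher and 3 lower (median log2 change 0.34). The proprotein convertase genes Pcsk5 and Pcsk6 rose from 15.7 ± 1.68 CPM to 42.8 ± 1.47 (log2 change 1.40, adjusted p = 2.86e-08) and from 48.2 ± 3.08 CPM to 82.8 ± 3.66 (log2 change 0.77, adjusted p = 2.53e-07). Itgb8, an integrin subunit gene whose product activates latent TGF-beta, fell from 9.06 ± 1.70 CPM to 4.14 ± 0.461 (log2 change -0.96, adjusted p = 8.06e-05). Nrros, which holds latent TGF-beta on macrophages and microglia, fell from 5.63 ± 2.11 CPM to 1.33 ± 0.264 (log2 change -1.46, adjusted p = 7.56e-05), beside the lower macrophage marker sums given above, whose part was not tested. Among other ligands there were 3 of 9 tested genes higher and 0 lower (median log2 change 0.25), and the activin subunit gene Inhbb rose from 68.5 ± 6.0 CPM to 129.6 ± 23.5 (log2 change 0.90, adjusted p = 3.61e-06) and Lefty1, for an inhibitory ligand, from 2.23 ± 0.201 CPM to 5.01 ± 1.78 (log2 change 0.86, adjusted p = 0.00253). Smads had 1 of 8 tested genes higher and 0 lower (median log2 change 0.035), with the inhibitory Smad7 rising from 60.3 ± 6.06 CPM to 76.1 ± 6.62 (log2 change 0.33, adjusted p = 0.00940).

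The TGF-beta response list of primary MycKO MEFs, which also holds Smad7, had 6 of 10 tested genes higher and 1 lower (median log2 change 0.24). Ccn2, for connective tissue growth factor, rose from 2044 ± 110.0 CPM to 3069.6 ± 193 (log2 change 0.59, adjusted p = 3.21e-05) and Ldlrad4, for an inhibitor of Smad activation, from 24.0 ± 1.43 CPM to 38.1 ± 2.86 (log2 change 0.64, adjusted p = 4.50e-05). Tgfbi, a matrix protein gene, fell from 37.7 ± 2.31 CPM to 21.5 ± 3.16 (log2 change -0.79, adjusted p = 2.73e-05). The BMP response list had 1 of 12 tested genes higher and 4 lower (median log2 change -7.00e-05). The homeobox genes Msx1 and Msx2 fell from 22.8 ± 1.57 CPM to 11.6 ± 0.472 (log2 change -0.91, adjusted p = 2.64e-06) and from 8.0 ± 1.04 CPM to 4.14 ± 0.679 (log2 change -0.81, adjusted p = 0.000125), and Id4 rose from 23.9 ± 0.894 CPM to 57.4 ± 1.48 (log2 change 1.23, adjusted p = 4.58e-08).

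In primary MlxKO MEFs fewer pathway genes passed the test than in MycKO or DKO MEFs, beside 3.75% of all genes higher and 5.14% lower. Receptors had 2 of 14 tested genes higher and 0 lower (median log2 change 0.090), and Acvr2a, for an activin receptor, and Tgfbr2 rose from 57.4 ± 8.53 CPM to 75.7 ± 7.69 (log2 change 0.40, adjusted p = 0.0317) and from 253 ± 1.75 CPM to 294 ± 12.1 (log2 change 0.22, adjusted p = 0.0154). Latency and activation genes had 1 of 17 tested genes higher and 4 lower (median log2 change -0.067). The matrix carrier gene Ltbp4 rose from 30.0 ± 0.495 CPM to 46.4 ± 3.38 (log2 change 0.61, adjusted p = 6.35e-05), while Pcsk5 and Lrrc32, whose product anchors latent TGF-beta on cells, fell from 15.7 ± 1.68 CPM to 9.96 ± 1.31 (log2 change -0.61, adjusted p = 0.00133) and from 483 ± 36.9 CPM to 354 ± 36.2 (log2 change -0.45, adjusted p = 0.00145). The TGF-beta response list had 0 of 10 tested genes higher and 3 lower (median log2 change -0.047), among them Smad7, for an inhibitory Smad, from 60.3 ± 6.06 CPM to 45.0 ± 5.56 (log2 change -0.42, adjusted p = 0.0108). The BMP response list had 2 of 12 tested genes higher and 1 lower (median log2 change 0.072). Hey1 and Msx1 rose from 5.77 ± 1.23 CPM to 10.2 ± 0.933 (log2 change 0.74, adjusted p = 0.00698) and from 22.8 ± 1.57 CPM to 33.3 ± 2.19 (log2 change 0.52, adjusted p = 0.00422), and Bambi, for a pseudoreceptor, fell from 10.9 ± 0.966 CPM to 7.29 ± 0.544 (log2 change -0.52, adjusted p = 0.0107). Other ligands had 0 of 9 tested genes higher and 1 lower (median log2 change 0.025), Smads 0 of 8 tested genes higher and 1 lower (median log2 change 0.077) and other antagonists 0 of 12 tested genes higher and 1 lower (median log2 change 0.019). The ligand that fell was Bmp8a, from 1.26 ± 0.169 CPM to 0.274 ± 0.0221 (log2 change -0.82, adjusted p = 0.00438), and the Smad was Smad7.

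In primary DKO MEFs, 24.0% of all tested genes were higher and 25.5% lower. Beside this, receptors had 10 of 14 tested genes higher and 0 lower (median log2 change 0.32), and Acvrl1 rose from 30.9 ± 1.48 CPM to 53.0 ± 2.57 (log2 change 0.76, adjusted p = 1.23e-06). Other antagonists had 8 of 12 tested genes higher and 1 lower (median log2 change 0.46), with Dcn rising from 189 ± 12.6 CPM to 456 ± 17.7 (log2 change 1.27, adjusted p = 3.57e-10), Chrd, for the BMP antagonist chordin, from 6.73 ± 1.13 CPM to 15.0 ± 1.56 (log2 change 1.05, adjusted p = 5.19e-06), and Chrdl1 falling from 3.45 ± 0.656 CPM to 2.16 ± 0.684 (log2 change -0.51, adjusted p = 0.0199). Latency and activation genes had 12 of 17 tested genes higher and 2 lower (median log2 change 0.52). Ltbp2, for a matrix protein of the latent TGF-beta binding family, rose from 899 ± 11.9 CPM to 1916 ± 31.9 (log2 change 1.09, adjusted p = 3.80e-10) and Pcsk5 from 15.7 ± 1.68 CPM to 35.0 ± 2.24 (log2 change 1.11, adjusted p = 1.98e-07), and Nrros and Itgb8 fell from 5.63 ± 2.11 CPM to 2.17 ± 0.981 (log2 change -1.06, adjusted p = 0.00108) and from 9.06 ± 1.70 CPM to 5.43 ± 0.473 (log2 change -0.63, adjusted p = 0.00231). Other ligands had 5 of 9 tested genes higher and 1 lower (median log2 change 0.37), with Inha, for the inhibin alpha subunit, rising from 3.03 ± 0.752 CPM to 6.20 ± 0.676 (log2 change 0.85, adjusted p = 0.000597) and Bmp8a falling from 1.26 ± 0.169 CPM to 0.250 ± 0.0175 (log2 change -0.85, adjusted p = 0.000373). Smads had 2 of 8 tested genes higher and 0 lower (median log2 change 0.069), with Smad6, an inhibitory Smad gene, rising from 26.2 ± 0.607 CPM to 32.5 ± 2.18 (log2 change 0.30, adjusted p = 0.00792).

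The TGF-beta response list of primary DKO MEFs had 5 of 10 tested genes higher and 0 lower (median log2 change 0.14), led by Ccn2, from 2044 ± 110.0 CPM to 3846 ± 266 (log2 change 0.91, adjusted p = 2.10e-07), and Tgfbi, from 37.7 ± 2.31 CPM to 53.4 ± 6.77 (log2 change 0.49, adjusted p = 0.00161). The BMP response list had 3 of 12 tested genes higher and 5 lower (median log2 change -0.15). Msx1 fell from 22.8 ± 1.57 CPM to 4.42 ± 0.604 (log2 change -2.14, adjusted p = 1.85e-10) and Msx2 from 8.0 ± 1.04 CPM to 4.0 ± 0.560 (log2 change -0.85, adjusted p = 6.34e-05), while the transcription factor genes Atoh8 and Id3 rose from 13.6 ± 1.82 CPM to 18.5 ± 1.72 (log2 change 0.42, adjusted p = 0.00533) and from 134 ± 6.84 CPM to 169 ± 4.71 (log2 change 0.33, adjusted p = 0.000967).

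In immortalized MycKO MEFs, 24.4% of all tested genes were higher and 23.5% lower, or 27.3% and 26.7% without WT library 4. Beside this, the TGF-beta response list had 6 of 10 tested genes higher and 0 lower (median log2 change 0.47), or 6 and 1 (median 0.46) without WT library 4. Pmepa1, for a TGF-beta-induced inhibitor of Smad signalling, rose from 301 ± 166 CPM to 918 ± 44.7 (log2 change 1.74, adjusted p = 0.000313, and 2.16, adjusted p = 2.23e-08, without WT library 4). Ccn2 rose from 1771 ± 1312 CPM to 4217 ± 299 (log2 change 1.5, adjusted p = 0.00491, and 2.06, adjusted p = 1.08e-07, without WT library 4). The BMP response list had 3 of 12 tested genes higher and 5 lower (median log2 change -0.39), or 4 and 7 (median -0.69) without WT library 4. Id4 rose from 4.06 ± 0.940 CPM to 23.9 ± 0.357 (log2 change 2.31, adjusted p = 3.46e-06, and 2.42, adjusted p = 3.35e-07, without WT library 4), and Msx1 and Smad6 fell from 37.2 ± 16.6 CPM to 11.1 ± 1.27 (log2 change -1.57, adjusted p = 0.000221, and -1.25, adjusted p = 1.48e-05, without WT library 4) and from 49.2 ± 9.72 CPM to 18.9 ± 4.13 (log2 change -1.34, adjusted p = 7.17e-05, and -1.40, adjusted p = 2.20e-05, without WT library 4). Receptors had 5 of 14 tested genes higher and 6 lower (median log2 change -0.10), or 4 and 6 (median -0.17) without WT library 4. Eng and Acvrl1 rose from 2.50 ± 1.23 CPM to 13.4 ± 3.18 (log2 change 2.08, adjusted p = 5.91e-05, and 1.78, adjusted p = 8.71e-06, without WT library 4) and from 2.03 ± 0.197 CPM to 4.69 ± 1.45 (log2 change 0.88, adjusted p = 0.00503, and 0.83, adjusted p = 0.00696, without WT library 4), beside endothelial marker sums of 14.4 to 19.1 CPM in MycKO and 3.10 to 5.05 in WT, with Tie1 and Emcn at 0 in every library, and the part of such cells was not tested. The BMP receptor genes Bmpr1a and Bmpr1b fell from 329 ± 44.5 CPM to 162 ± 6.05 (log2 change -1.01, adjusted p = 0.000152, and -1.10, adjusted p = 2.03e-05, without WT library 4) and from 17.7 ± 2.70 CPM to 6.60 ± 0.915 (log2 change -1.29, adjusted p = 5.54e-05, and -1.19, adjusted p = 3.16e-05, without WT library 4).

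Other ligands in immortalized MycKO MEFs had 6 of 12 tested genes higher and 2 lower (median log2 change 0.24), or 6 and 5 (median 0.13) without WT library 4. Inhbb rose from 14.2 ± 3.27 CPM to 81.1 ± 3.38 (log2 change 2.45, adjusted p = 2.55e-07, and 2.61, adjusted p = 2.03e-09, without WT library 4), and Gdf5, a joint-forming ligand gene, fell from 3.05 ± 1.43 CPM to 0.431 ± 0.0823 (log2 change -1.44, adjusted p = 0.000269, and -1.18, adjusted p = 8.32e-05, without WT library 4). Latency and activation genes had 4 of 16 tested genes higher and 6 lower (median log2 change -0.21), or 5 and 7 (median -0.24) without WT library 4, with Lrrc32 rising from 139 ± 56.3 CPM to 326 ± 58.0 (log2 change 1.28, adjusted p = 0.000673, and 1.59, adjusted p = 9.18e-07, without WT library 4) and Itgb8 falling from 33.7 ± 12.7 CPM to 3.50 ± 0.539 (log2 change -2.88, adjusted p = 4.16e-06, and -3.21, adjusted p = 5.90e-09, without WT library 4). Smads had 1 of 8 tested genes higher and 4 lower (median log2 change -0.26), or 2 and 3 (median -0.20) without WT library 4. Other antagonists had 4 of 12 tested genes higher and 1 lower (median log2 change 0.24), or 4 and 2 (median 0.12) without WT library 4.

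In immortalized MlxKO MEFs, 19.1% of all tested genes were higher and 19.9% lower, or 23.1% and 23.8% without WT library 4. Beside this, receptors had 0 of 14 tested genes higher and 5 lower (median log2 change -0.21), or 0 and 6 (median -0.17) without WT library 4, and Smads 0 of 8 tested genes higher and 4 lower (median log2 change -0.33), or 0 and 4 (median -0.32) without WT library 4. The BMP receptor gene Bmpr2 fell from 285 ± 31.7 CPM to 120.2 ± 14.8 (log2 change -1.24, adjusted p = 0.000132, and -1.22, adjusted p = 2.81e-05, without WT library 4) and Smad4, the Smad that both branches share, from 181 ± 12.7 CPM to 118 ± 7.64 (log2 change -0.60, adjusted p = 0.000942, and -0.56, adjusted p = 0.000729, without WT library 4). The TGF-beta response list had 2 of 10 tested genes higher and 4 lower (median log2 change -0.25), or 3 and 3 (median -0.10) without WT library 4, with Tgfbi rising from 10.9 ± 4.36 CPM to 29.1 ± 2.66 (log2 change 1.41, adjusted p = 0.00119, and 1.67, adjusted p = 2.71e-05, without WT library 4) and Ccn2 falling from 1771 ± 1312 CPM to 753 ± 90.5 (log2 change -0.99, adjusted p = 0.0444, and -0.43, adjusted p = 0.0373, without WT library 4). The BMP response list had 1 of 12 tested genes higher and 3 lower (median log2 change -0.30), or 1 and 5 (median -0.46) without WT library 4, with Msx1 rising from 37.2 ± 16.6 CPM to 80.8 ± 4.43 (log2 change 1.19, adjusted p = 0.00266, and 1.51, adjusted p = 5.99e-06, without WT library 4). Other ligands had 5 of 12 tested genes higher and 0 lower (median log2 change 0.41), or 5 and 1 (median 0.32) without WT library 4, with Gdf5 rising from 3.05 ± 1.43 CPM to 9.57 ± 1.33 (log2 change 1.43, adjusted p = 0.000764, and 1.70, adjusted p = 6.60e-06, without WT library 4). Other antagonists had 2 of 12 tested genes higher and 2 lower (median log2 change 0.13), or 4 and 3 (median 0.19) without WT library 4. Latency and activation genes had 1 of 16 tested genes higher and 4 lower (median log2 change -0.064), or 4 and 5 (median -0.23) without WT library 4, with the integrin subunit gene Itgav falling from 616 ± 86.8 CPM to 333 ± 16.2 (log2 change -0.88, adjusted p = 0.000462, and -0.84, adjusted p = 0.000172, without WT library 4).

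In immortalized DKO MEFs, 10.4% of all tested genes were higher and 8.51% lower, or 12.0% and 10.1% without WT library 4. Beside this, the BMP response list had 6 of 12 tested genes higher and 0 lower (median log2 change 0.91), or 8 and 0 (median 0.61) without WT library 4. Id1, a direct BMP target gene, rose from 55.6 ± 23.6 CPM to 127 ± 9.48 (log2 change 1.26, adjusted p = 0.00497, and 0.94, adjusted p = 0.00158, without WT library 4), and Atoh8 from 18.8 ± 8.13 CPM to 41.0 ± 3.69 (log2 change 1.15, adjusted p = 0.00437, and 0.98, adjusted p = 0.00404, without WT library 4). Smads, which share Smad6 and Smad9 with that list, had 2 of 8 tested genes higher and 1 lower (median log2 change -0.00169), or 2 and 0 (median 0.10) without WT library 4, with Smad6 rising from 49.2 ± 9.72 CPM to 78.0 ± 8.72 (log2 change 0.66, adjusted p = 0.0196, and 0.61, adjusted p = 0.0270, without WT library 4). Other antagonists had 4 of 12 tested genes higher and 0 lower (median log2 change 0.32), or 5 and 0 (median 0.39) without WT library 4, with Nog rising from 4.87 ± 0.944 CPM to 17.1 ± 1.84 (log2 change 1.63, adjusted p = 0.000440, and 1.72, adjusted p = 9.64e-05, without WT library 4). Receptors had 0 of 14 tested genes higher and 4 lower (median log2 change -0.24), or 0 and 3 (median -0.20) without WT library 4, with the co-receptor gene Tgfbr3 falling from 187 ± 8.32 CPM to 72.7 ± 9.88 (log2 change -1.36, adjusted p = 3.79e-05, and -1.32, adjusted p = 1.52e-05, without WT library 4). The TGF-beta response list had 1 of 10 tested genes higher and 1 lower (median log2 change 0.15), or 4 and 1 (median 0.27) without WT library 4, with Tgfbi falling from 10.9 ± 4.36 CPM to 0.881 ± 0.0261 (log2 change -2.59, adjusted p = 2.93e-05, and -2.33, adjusted p = 2.55e-06, without WT library 4). Other ligands had 4 of 12 tested genes higher and 0 lower (median log2 change 0.44), or 6 and 0 (median 0.40) without WT library 4, and latency and activation genes 1 of 16 tested genes higher and 2 lower (median log2 change 0.18), or 4 and 3 (median 0.11) without WT library 4. Chondrocyte marker sums were 94.3 to 115 CPM in DKO and 40.9 to 106 in WT, beside 24.7 to 27.1 in MlxKO and 21.3 to 26.7 in MycKO, and the part of such cells in the levels of Bmp4 and Gdf6 was not tested.

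Of the 19 counts of 0 by limma in these lists, 12 were also 0 at an unadjusted p below 0.05 and the others lay between 1 and 4 genes. With edgeR all 19 were 0, and with DESeq2 17 were 0 and the others 1.

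**Figure D5:**
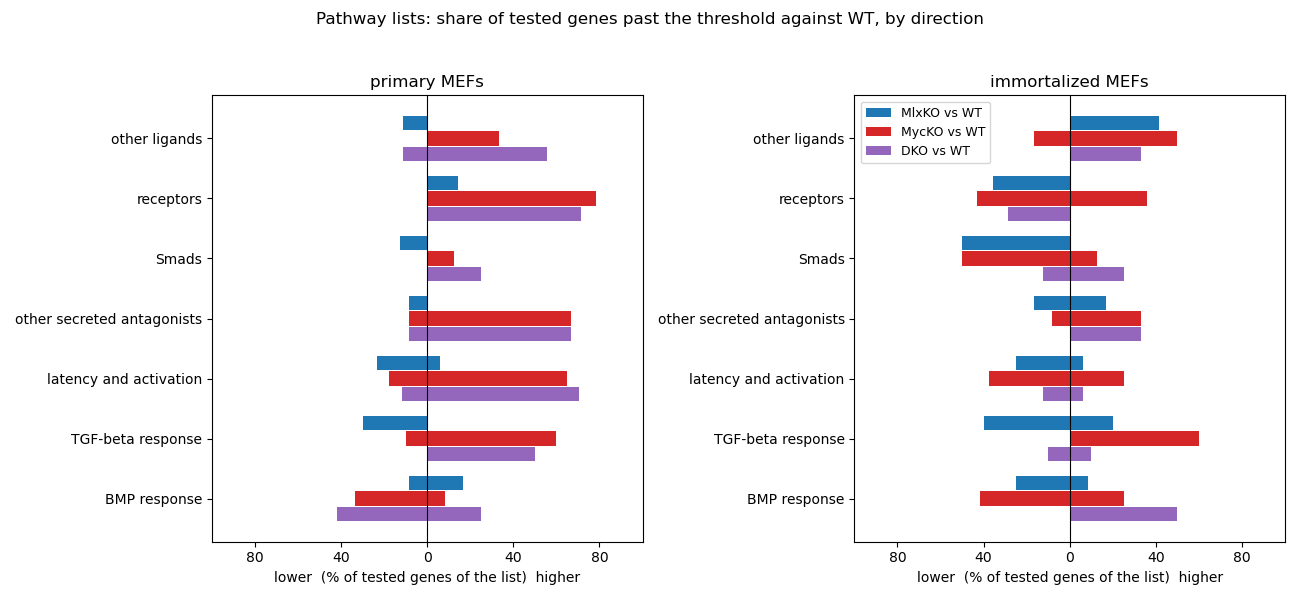
Share of the tested genes of each pathway list (y axis) that passed an adjusted p below 0.05 against WT, in percent, with higher genes to the right of 0 and lower genes to the left (x axis), for MlxKO, MycKO and DKO cells of each table. Receptors, other antagonists and latency genes extend mostly to the right in primary MycKO and DKO cells, and the BMP response list extends only to the right in immortalized DKO cells.

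For the 4 members with the widest range of group means, the genes with the most similar pattern were sought by the smaller of both tables' Pearson correlations of log2(CPM + 1) over the 12 libraries of a table. These correlations describe libraries that fall into 4 groups of 3. Grem1 was most like Kif1a (r = 0.945 in primary and 0.935 in immortalized libraries) and Chl1 (r = 0.898 in primary and 0.942 in immortalized libraries). Gdf6 was most like Serpine2 (r = 0.926 in primary and 0.942 in immortalized libraries) and Ltbp2 (r = 0.884 in primary and 0.940 in immortalized libraries), the first of which is a protease inhibitor gene and the second the matrix gene named above. Inhba was most like Trib2 (r = 0.970 in primary and 0.971 in immortalized libraries) and Msn (r = 0.973 in primary and 0.968 in immortalized libraries), and Gdf10 most like Slfn5 (r = 0.849 in primary and 0.868 in immortalized libraries) and Trim30d (r = 0.882 in primary and 0.834 in immortalized libraries).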

How the data were processed

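RNA was measured in 24 libraries of mouse embryonic fibroblasts, 3 in each of 8 groups. The authors aligned and counted reads in CLC Genomics Workbench against the mouse genome (GRCm39 per the labels) and deposited 1 table of primary and 1 of immortalized cells with 41710 genes each. The deposited values are a CPM-like signal, that is reads per gene scaled to library size by the authors with a further between-library factor that is not given in the sources used here, since columns did not sum to the same total. All values (100% in each library, within 0.1 read) were whole multiples of 1 read, which gave back the reads and the depth of each library. Precision from depth covers counting error only.

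Samples were grouped by their labels. log2(CPM + 1) was fitted with limma 3.58.1 in R 4.3.3 (variance trend, 4 groups of a table in 1 fit, 2-sided), with Benjamini-Hochberg adjustment over the genes that reached 1 CPM or more in 3 or more of the 12 libraries (13101 in primary and 12880 in immortalized cells). Each knockout was compared with WT, DKO with each single knockout, and the interaction was tested. Tables were not tested against each other. With 3 against 3 libraries an exact permutation test cannot go below 0.10, so none was used. The alternatives were DESeq2 1.42.0 and edgeR 4.0.16 run on those reads, other pseudocounts, filters and scalings, fits of only the groups compared and leaving out each library, and the main code was tested on simulated data.

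The 10 members and the 7 pathway lists were chosen with earlier results of these data known. Of each list, the genes named were among the 2 largest rises and 2 largest falls per comparison that passed the test without overlap of libraries. A few list genes are counted but not reported by name here. Exon lengths and gene positions came from GENCODE vM39 (GRCm39), which is not stated to be the annotation the authors used and matched 41181 genes. Promoter sequences came from RefSeq.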

Additional observations from a re-analysis of the deposited data

Results flagged for a closer look

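For 7 members in each table, the limma interaction of Myc and Mlx loss passed the test, beside 13.5% of all genes in primary and 47.4% in immortalized cells. Differences between floxed lines and drug exposure also enter this interaction and cannot be told apart from the state of Mlx. In primary cells the interaction was -0.35 for Tgfb2, 0.39 for Tgfb3, 0.89 for Bmp4, 1.33 for Gdf6, 2.998 for Gdf10, -0.55 for Grem1 and 0.62 for Fst on the log2 scale. In immortalized cells it was -1.76 for Tgfb1, 1.64 for Tgfb2, -2.19 for Tgfb3, -3.04 for Inhba, 1.64 for Bmp4, 3.87 for Gdf6 and -4.73 for Grem1. Tgfb2, Tgfb3, Bmp4, Gdf6 and Grem1 had interactions in both tables, with opposite signs for Tgfb2 and Tgfb3 and the same sign for Bmp4, Gdf6 and Grem1, and the difference between tables was not tested. The primary Tgfb2 call was lost in most fits that left out 1 library. It was also lost with no filter on low values, with median-ratio scaling and by edgeR (adjusted p = 0.0568).

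For 4 members, all 3 libraries of a knockout lay on one side of WT in primary cells and on the other in immortalized cells, and this difference was not tested either. The share of all genes that changed side in this way was not taken, so the count is only descriptive. MlxKO libraries were below WT for Tgfb1 in primary cells and above it in immortalized cells, where the log2 fold change was 0.43. Tgfb2 was above WT in all 3 primary knockouts and below it in the immortalized ones, at -0.79 in MycKO, -1.03 in MlxKO and -0.18 in DKO, the last of which did not pass the test (limma adjusted p = 0.207). Gdf10 was below WT in primary MycKO and MlxKO libraries and above it in the immortalized ones, at 0.53 and 0.99. Grem1 was above WT in primary DKO libraries and below it in immortalized ones, at -1.43. Some of these calls against WT were lost in fits that left out 1 library. They were Tgfb1 in MlxKO of both tables, Tgfb2 in primary MycKO, and Gdf10 in primary MlxKO and immortalized MycKO.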

How the results depend on the processing

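The counts of members that passed in MlxKO against WT were the ones that moved by over 1.5 times. In primary cells the count of 7 was 4 with no filter on low values and between 3 and 7 on leaving out 1 library. In immortalized cells the count of 5 was 3 with no filter, 2 with only the groups compared, 3 by edgeR, 3 by limma, edgeR and DESeq2 together, and between 2 and 8 on leaving out 1 library. Except for the filter, which changes the number of genes tested, and the fits with fewer libraries, the cause was not tested. The other 10 counts of members stayed within 1.5 times under every alternative run. The only reversed sign among called members was that of Fst in immortalized DKO against WT, from -0.11 to 0.66 without WT library 4, with a range of -0.52 to 0.66 on leaving out 1 library. Without WT library 4, 2 libraries stand for that group. Of 882 counts of the pathway lists under alternatives, 803 stayed within 1.5 times.

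Counts over all genes that moved by over 1.5 times were those of primary MlxKO against WT (1164), at 620 without WT library 1, 626 without WT library 2, 735 without MlxKO library 6 and 2025 without MycKO library 10, of immortalized MlxKO against WT (5014), at 2836 without MlxKO library 6 and 3130 without library 7, of immortalized DKO against WT (2434), at 906 with only the groups compared and 1095, 1493 and 1381 without DKO library 13, 14 and 15, and of immortalized DKO against MlxKO (3879), at 6011 with only the groups compared and 2294, 2344, 2370 and 2523 without MlxKO library 6, MlxKO library 7, DKO library 14 and DKO library 15. Scaling by library totals moved the share of higher calls in DKO against MlxKO from 47.3% to 32.4% in primary and from 54.0% to 29.2% in immortalized cells, and of the immortalized interaction from 49.9% to 37.2%, with all-gene medians of -0.12, -0.16 and -0.18. It reversed no member, and the members split 6 higher and 1 lower, 3 and 4, and 3 and 5.

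No paired analysis was possible because nothing in the sources links a column's own number to a labelled replicate. At the depth of these libraries, levels below about 0.2 CPM, as of Bmp2 in 1 primary WT library, rest on 3 or fewer reads.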

Other observations

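Markers of other cell types that stand beside no result above varied between groups as well. Epithelial markers (6 genes) summed to between 16.5 and 19.9 CPM in primary WT and between 1.95 and 4.83 in the primary knockouts, and to between 0.102 and 5.91 CPM in immortalized libraries. Chondrocyte markers (6 genes) summed to between 107 and 123 CPM in primary WT, 114 and 127 in MlxKO, 99.4 and 106 in MycKO and 147 and 168 in DKO. Neural and glial markers (6 genes) summed to between 87.3 and 169 CPM in primary and between 51.2 and 149 in immortalized libraries.

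Skeletal muscle markers (5 genes) summed to between 64.9 and 138 CPM in primary libraries. In immortalized cells they summed to between 13.1 and 22.7 CPM in WT, 9.49 and 10.4 in MlxKO, 191 and 231 in MycKO and 85.6 and 91.0 in DKO, with Myod1, Myog and Myf5 at 0 in all of these libraries, so that the sums came from Des and Acta1. Endothelial markers (6 genes) summed to between 3.52 and 5.91 CPM in primary MlxKO and DKO libraries and to between 5.66 and 9.0 CPM in immortalized MlxKO and DKO libraries.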
